A study of Mus musculus with 12 samples.

Results

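The genes described are 10 that license and carry out DNA replication: E2f1, Ccne1, Cdc6, Mcm2, Mcm3, Mcm5, Mcm6, Pcna, Rrm2 and Tyms. They were taken by symbol from a table of raw read counts with 77175 genes, and all 10 were found, each on 1 Ensembl identifier. Messenger RNA was sequenced in 12 mouse libraries that form 4 groups of 3. OVA T cells and B16-F10 T cells are fractions recovered with CD8 beads from B16-F10-OVA or from B16-F10 tumors. The labels name them CD8+ lymphocytes of genotype C57BL/6J-OT-I, activated with anti-CD3/anti-CD28 beads and given to tumor-bearing NOD-SCID mice. Endothelial and fibroblast markers each summed above T cell markers in both fractions, so T cells here is the name of a fraction. OVA tumor cells and B16-F10 tumor cells are fractions sorted by FACS as B16-F10 melanoma cells. The sort was for the calcium sensor GCaMP6s, which both lines carry under the EF1A promoter (pLV[Exp]-Puro-EF1A>GCaMP6s). OVA tumor cells also held much endothelial, fibroblast and macrophage marker RNA, so tumor cells too is the name of a fraction. The OVA line carries ovalbumin under the same promoter in addition (pLV[Exp]-Neo-EF1A>{ovalbumin}). All 4 groups come from mice that received the T cells, 2 days before the tumors were taken, so no group shows tumor cells without T cell transfer. The OT-1 receptor recognizes a peptide of ovalbumin, B16-F10 is a mouse melanoma line, and NOD-SCID mice lack T and B cells of their own but keep stromal, vascular and myeloid cells. The labels give no age, and leave it unsaid if each library is a mouse of its own or a pool of animals.

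DNA replication is licensed in G1 phase, when the origin recognition complex, CDC6 and CDT1 load the MCM helicase, a ring of MCM2 to MCM7, onto DNA. Cyclin E with the kinase CDK2 then helps to start replication, the sliding clamp PCNA holds the polymerases on the template, and ribonucleotide reductase and thymidylate synthase supply deoxynucleotides. E2F transcription factors drive many of these genes once the retinoblastoma protein releases them, so their messages are widely read as marks of cycling cells. Activated CD8+ T cells and melanoma lines both divide quickly, while resting stromal cells do not.

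The depth was 15494683 to 33263730 counts per library. Gene levels are given in CPM, the counts scaled to a common library total, as mean ± SD with n = 3. Markers of other cell types were high in every group but B16-F10 tumor cells. Endothelial markers summed to 9120 ± 33.1 CPM in OVA T cells, 9995 ± 53.8 CPM in B16-F10 T cells, 3958 ± 24.3 CPM in OVA tumor cells and 43.4 ± 1.30 CPM in B16-F10 tumor cells. T cell markers reached 889.7 ± 0.556 CPM in OVA T cells, 934 ± 7.15 CPM in B16-F10 T cells, 127 ± 4.65 CPM in OVA tumor cells and 4.64 ± 0.360 CPM in B16-F10 tumor cells. Melanoma markers reached 109.6 ± 3.17 CPM in OVA T cells, 246 ± 3.80 CPM in B16-F10 T cells, 10000 ± 8.79 CPM in OVA tumor cells and 23496 ± 48.5 CPM in B16-F10 tumor cells. Fibroblast markers were spread like the endothelial ones, and macrophage markers were highest in OVA tumor cells, at 2835 ± 10.9 CPM against 16.4 ± 0.582 CPM in B16-F10 tumor cells. In B16-F10 tumor cells Cd3e, Trac, Trbc2 and Cd2 of the 12 T cell markers and Emcn, Cldn5 and Erg of the 12 endothelial markers were at 0 counts. The mitochondrial share of counts was 2.78% in OVA T cells, 3.31% in B16-F10 T cells, 6.50% in OVA tumor cells and 1.76% in B16-F10 tumor cells. The part that these mixtures and shares play in the differences below was not tested, and in such bulk samples fewer cells of a type cannot be told apart from less RNA per cell. Libraries of a group varied little beyond counting (chi-square per degree of freedom 1.50 to 1.72 over the 12 replicate pairs), so the p-values measure a spread that may be technical.

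The replication genes stood highest in B16-F10 tumor cells and lowest in the T cell fractions. Summed over the 10 genes, they took 626 ± 9.42 CPM in OVA T cells, 680 ± 5.23 CPM in B16-F10 T cells, 1077 ± 11.0 CPM in OVA tumor cells and 1418 ± 14.3 CPM in B16-F10 tumor cells. For E2f1, Cdc6, Mcm2, Mcm3, Mcm5, Mcm6 and Tyms the group means followed this same order. Ccne1 and Rrm2 had the T cell groups the other way round with overlapping libraries, and Pcna had its lowest mean in OVA tumor cells. The share of all genes whose groups do not overlap was not counted, so the gaps named below describe single genes only.

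**Figure D1:**
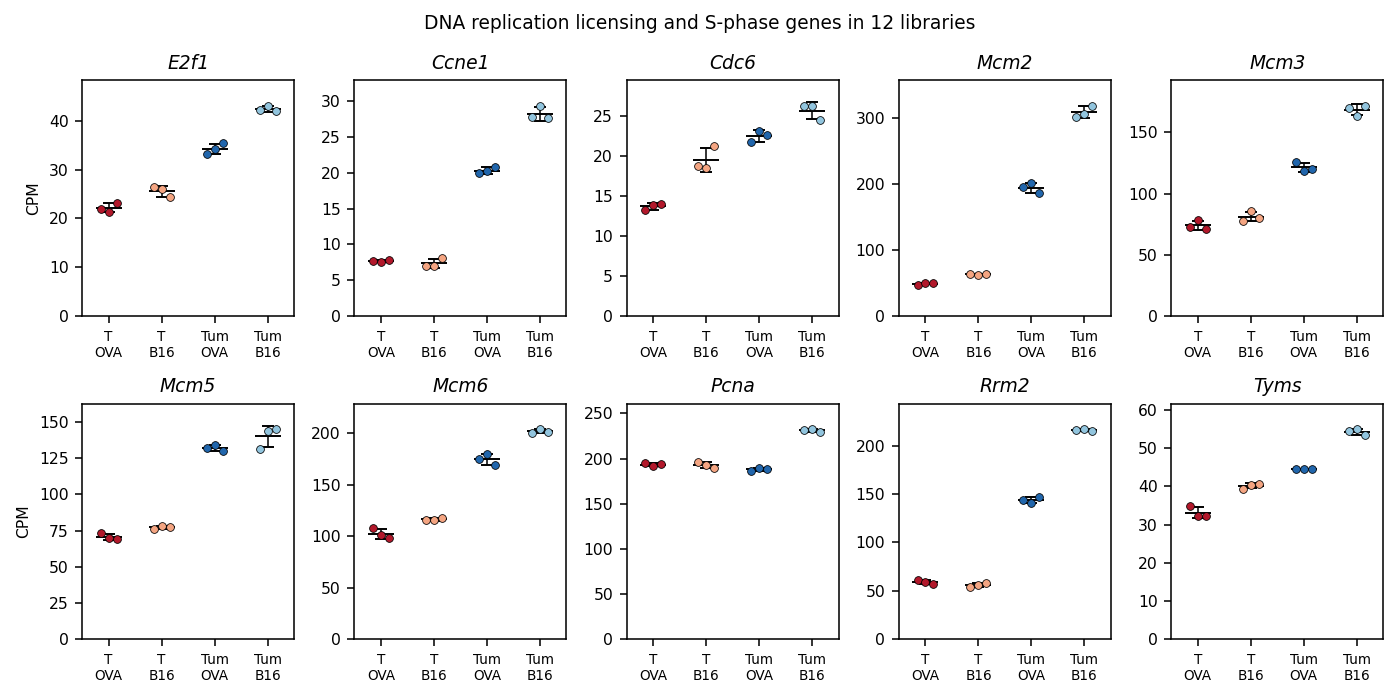
CPM (y axis, from 0) of each of the 10 genes in the 12 libraries, with OVA T cells, B16-F10 T cells, OVA tumor cells and B16-F10 tumor cells from left to right. Points are libraries, and bars are mean ± SD of 3. B16-F10 tumor cells stand above the other groups in every panel except that of Mcm5, where they overlap with OVA tumor cells, and Pcna is nearly level over the other 3 groups. How often groups stand apart over all genes was not counted.

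E2f1, the transcription factor that switches on many S-phase genes, had 21.9, 21.4 and 23.2 CPM in OVA T cells and 26.5, 25.9 and 24.3 CPM in B16-F10 T cells. In the tumor fractions it had 33.2, 34.2 and 35.4 CPM in OVA tumor cells and 42.2, 43.1 and 42.0 CPM in B16-F10 tumor cells. All 4 groups were apart, each T cell group below each tumor group. E2f1 overlaps Necab3 in RefSeq, and how reads in the overlap were assigned is not given in the sources used here. Ccne1 encodes cyclin E1, the partner of CDK2 at the start of S phase. It had 7.71, 7.56 and 7.80 CPM in OVA T cells and 6.94, 7.01 and 8.07 CPM in B16-F10 T cells, which overlap. Ccne1 had 19.9, 20.2 and 20.8 CPM in OVA tumor cells and 27.8, 29.4 and 27.7 CPM in B16-F10 tumor cells, so every tumor library was above every T cell library.

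Cdc6, whose product brings MCM rings to origins, had 13.2, 13.9 and 14.0 CPM in OVA T cells and 18.8, 18.6 and 21.3 CPM in B16-F10 T cells, with a clear gap between them. Its tumor values lay closer together, at 21.8, 23.2 and 22.7 CPM in OVA tumor cells and 26.4, 26.3 and 24.5 CPM in B16-F10 tumor cells, still without overlap.

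The 4 MCM genes encode subunits of the same ring, yet the spacing between their groups differed. Mcm2 had 47.8, 49.9 and 49.6 CPM in OVA T cells and 63.0, 62.4 and 63.8 CPM in B16-F10 T cells. It had 196, 201 and 187 CPM in OVA tumor cells and 302, 307 and 319.6 CPM in B16-F10 tumor cells. Mcm2 was the gene of the 10 with the widest spacing between groups, and no groups overlapped. Mcm3 had 73.0, 78.3 and 71.5 CPM in OVA T cells, 77.7, 85.5 and 80.4 CPM in B16-F10 T cells, 126, 119 and 120.4 CPM in OVA tumor cells and 170.0, 164 and 172 CPM in B16-F10 tumor cells. The T cell groups overlapped for Mcm3, and the tumor groups did not. Mcm5 had 73.2, 69.6 and 69.1 CPM in OVA T cells, 75.8, 78.2 and 77.5 CPM in B16-F10 T cells, 132, 134 and 130.2 CPM in OVA tumor cells and 131, 143 and 145 CPM in B16-F10 tumor cells. Library 1 of the B16-F10 tumor cells was the low one and lay within the OVA tumor range, while the T cell groups were just apart. Mcm6 had 108, 101 and 98.6 CPM in OVA T cells, 115, 116 and 118 CPM in B16-F10 T cells, 175, 180.4 and 169 CPM in OVA tumor cells and 200.4, 204 and 202 CPM in B16-F10 tumor cells. All 4 groups were apart for Mcm6.

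Promoters of the 10 genes, from 250 bases before to 50 bases after the RefSeq start (GRCm38.p6), were searched on both strands for an E2F-type motif (TTTCCCGC, TTTGGCGC, TTTCGCGC or TTTGCCGC), for CCAAT, and for the cell cycle homology region (CHR, TTTGAA) known from genes of late cell cycle. All 10 genes had a promoter in the table. An E2F-type match was found in 4 of the 10, Mcm3, Mcm5, Mcm6 and Cdc6, and in 2.26% of all 32851 promoters. CCAAT was found in 6 of the 10 and in 37.4% of all promoters, and TTTGAA in 1 of the 10, Mcm2, and in 17.9% of all promoters. Of 16 promoters found for 20 mitotic genes, 12 held TTTGAA, 15 held CCAAT and 1 held an E2F-type match. These are matches of letters, not measured binding sites, and the absence of a match says nothing of the factor. The 5 matched stretches are shown because they set the MCM genes and Cdc6 side by side, with the TTTGAA match of Mcm2 and the E2F-type matches of the others in capitals. A CCAAT match of Mcm6 on the other strand lies within its stretch and is left in lower case. Each is read 5′ to 3′ on the strand of the gene, where a capital run GCGGGAAA is the reverse complement of TTTCCCGC. In Mcm5 and in the upstream stretch of Mcm6 matches on both strands overlap.
Mcm2, chr6:88898835-88898860, minus strand: ggctcagcctTTTGAAagctgtgggc
Mcm3, chr1:20820266-20820294, minus strand: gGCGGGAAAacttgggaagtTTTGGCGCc
Mcm5, chr8:75109346-75109377, plus strand: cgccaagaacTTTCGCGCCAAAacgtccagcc
Mcm6, chr1:128359735-128359825, minus strand: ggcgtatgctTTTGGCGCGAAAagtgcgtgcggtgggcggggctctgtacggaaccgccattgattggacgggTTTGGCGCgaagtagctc
Cdc6, chr11:98908003-98908030, plus strand: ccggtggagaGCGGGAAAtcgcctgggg

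Levels of different genes can be set side by side only per length of transcript. For this the CPM of each MCM gene was divided by the length of its longest principal transcript in kilobases (GENCODE M21, while the authors' annotation is on another build). On this scale Mcm2 was the lowest of the 6 ring subunits in OVA T cells, at 14.6 ± 0.339 CPM per kb, within the spread of Mcm7 at 15.2 ± 0.462, and Mcm6 the highest, at 35.3 ± 1.70. In B16-F10 T cells the lowest were Mcm7, at 16.6 ± 0.295 CPM per kb, Mcm4, at 17.7 ± 0.679, and Mcm2, at 18.7 ± 0.206. In OVA tumor cells Mcm2, at 57.7 ± 2.16 CPM per kb, and Mcm6, at 60.1 ± 1.93, were close to each other and above the rest. In B16-F10 tumor cells Mcm2 stood highest at 91.8 ± 2.70 CPM per kb, above Mcm6 at 69.5 ± 0.703, Mcm3 at 55.6 ± 1.44 and Mcm4, the lowest, at 26.3 ± 0.145. Mcm2 was thus among the lowest subunits in the T cell fractions and the highest in B16-F10 tumor cells. Mcm7 shares its locus with Ap4m1 and 3 miRNA genes, so its counts are uncertain.

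**Figure D2:**
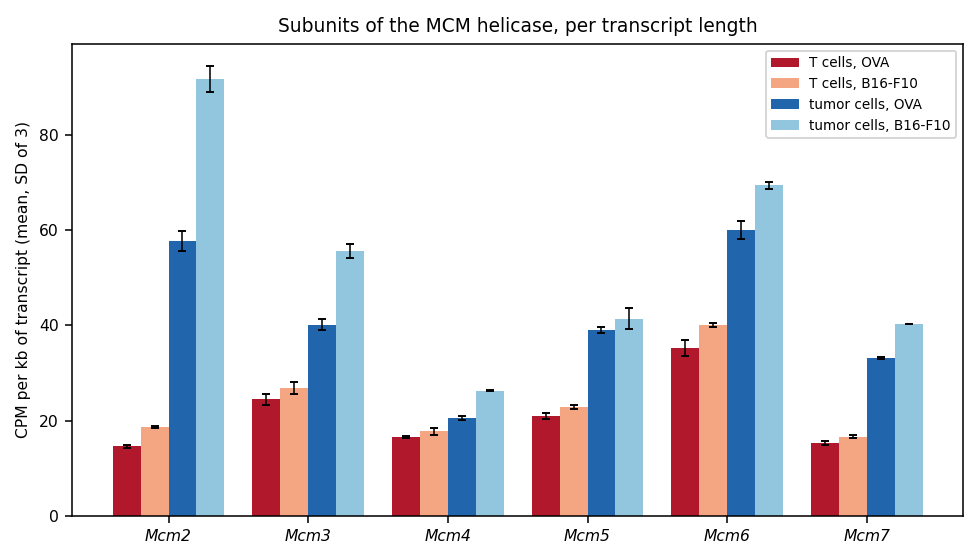
CPM per kilobase of transcript (y axis, from 0) of the 6 ring subunits Mcm2 to Mcm7 in OVA T cells, B16-F10 T cells, OVA tumor cells and B16-F10 tumor cells. Bars and error bars are mean ± SD of 3 libraries. Mcm2 is among the lowest in OVA T cells (14.6) and highest in B16-F10 tumor cells (91.8).

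Pcna, the sliding clamp, was nearly level over 3 of the groups. It had 195, 192 and 194 CPM in OVA T cells and 196, 193 and 190.0 CPM in B16-F10 T cells, which overlap. OVA tumor cells had 186, 189.6 and 188 CPM and B16-F10 tumor cells 231, 233 and 229.6 CPM, so the last group stood alone. Per kilobase Pcna was the most abundant of the 10 in each group, from 124 ± 1.06 CPM per kb in OVA tumor cells to 152 ± 1.05 in B16-F10 tumor cells. The pseudogene Pcna-ps2, which resembles it in sequence, summed to 752 counts in OVA T cells, 706 in B16-F10 T cells, 527 in OVA tumor cells and 4 in B16-F10 tumor cells. How reads that match both were assigned is not given in the sources used here, so the level of Pcna is uncertain to that degree.

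Rrm2 encodes the small subunit of ribonucleotide reductase, which makes deoxynucleotides in S phase. It had 61.2, 58.8 and 56.8 CPM in OVA T cells and 54.4, 56.3 and 58.3 CPM in B16-F10 T cells, with overlap. It had 144, 140.7 and 147 CPM in OVA tumor cells and 216, 217 and 215 CPM in B16-F10 tumor cells, with wide gaps between these groups and the T cells. Tyms, thymidylate synthase, had 34.8, 32.2 and 32.3 CPM in OVA T cells and 39.3, 40.3 and 40.7 CPM in B16-F10 T cells. In the tumor fractions Tyms had 44.4, 44.5 and 44.4 CPM in OVA tumor cells and 54.4, 55.0 and 53.4 CPM in B16-F10 tumor cells. The Tyms groups did not overlap, yet their whole range was much narrower than that of Rrm2. The coefficient of variation between libraries of a group ran from 0.079% to 8.60% over the 10 genes and 4 groups, against 1.24% to 8.89% expected from counting alone. Single entries lay on both sides of counting. Mcm5 in B16-F10 tumor cells had 5.32% against 1.84% expected, and Mcm2 in OVA tumor cells 3.74% against 1.46%. Tyms in OVA tumor cells had 0.079% against 3.05%.

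The comparison of OVA tumor cells with B16-F10 tumor cells sets the sorted fraction of antigen-bearing tumors against that of B16-F10 tumors. It is not a comparison within melanoma cells alone, since endothelial markers summed to 3958 CPM in OVA tumor cells against 43.4 CPM in B16-F10 tumor cells. With TMM scaling 7 of the 10 genes fell in OVA tumor cells, 1 rose and 2 did not pass, whereas all 10 rose with melanoma-marker scaling. The test was edgeR's quasi-likelihood test, with a Benjamini-Hochberg adjusted p under 0.05 over 17418 genes, of which 79.4% passed, 42.0% higher and 37.4% lower. The median log2 fold change of the 10 was -0.14, against 0.04 over all genes. Mcm2 fell by 0.50 on the log2 scale (SE 0.0231, adjusted p = 2.44e-15), Rrm2 by 0.42 (SE 0.0202, adjusted p = 5.66e-15), Ccne1 by 0.31 (SE 0.0509, adjusted p = 7.26e-06) and Mcm3 by 0.29 (SE 0.0243, adjusted p = 1.41e-10). E2f1, Pcna and Tyms fell by 0.14, 0.13 and 0.12 on the log2 scale, but with DESeq2 E2f1 (adjusted p = 0.101) and Tyms (adjusted p = 0.134) did not pass. Not all helicase subunits fell. Mcm6 had a log2 fold change of -0.04 (95% interval -0.09 to 0.0013), which passed without library 2 of the OVA tumor cells or library 1 or 3 of the B16-F10 tumor cells (edgeR adjusted p = 0.0291 to 0.0359), and Mcm5 rose by 0.09 (SE 0.0283, adjusted p = 0.00907). Mcm5 no longer passed without library 1 of the B16-F10 tumor cells (log2 fold change 0.03, adjusted p = 0.258). Cdc6 had a log2 fold change of -0.03 (95% interval -0.14 to 0.08).

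These directions depend on what the libraries are scaled to. TMM scaling sets the bulk of genes near no change. Scaled to total counts, as the CPM values above are, the median of all genes moved by -0.17 and all 10 genes fell, Mcm5 by 0.08, Mcm6 by 0.21 and Cdc6 by 0.20 on the log2 scale. The 12 melanoma markers summed to 10000 CPM in OVA tumor cells against 23496 CPM in B16-F10 tumor cells, but single markers moved unequally. Oca2 alone was higher in OVA tumor cells, at 15.0 CPM against 10.6 CPM. Mitf had 524 CPM there against 766 CPM, and Slc24a5 114 CPM against 548 CPM. Scaled to the sum of these markers, the median of all genes moved by 1.06 and all 10 genes rose, from 0.56 for Mcm2 to 1.03 for Cdc6, and to 1.15 for Mcm5. Under that scaling 96.1% of the 16043 calls over all genes were higher, against 52.9% of 13838 with TMM. A scaling moves every gene by nearly the same amount, so the order among the 10 stays, with Mcm2, Rrm2, Ccne1 and Mcm3 lowest, while the sign does not. The OVA tumor cells carried more T cell, endothelial, fibroblast and macrophage marker RNA (sums above), and the part of those cells in the differences was not tested.

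**Figure D3:**
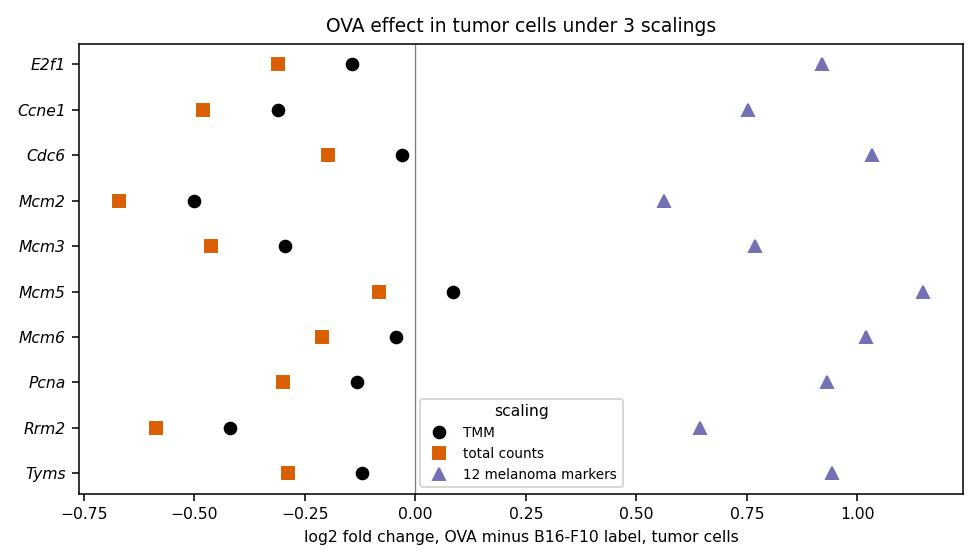
Log2 fold change of OVA tumor cells over B16-F10 tumor cells (x axis) for the 10 genes (y axis) under TMM, total-count and melanoma-marker scaling, 1 point for each. The whole set shifts with the scaling, lower throughout with total counts and higher throughout with melanoma markers, while Mcm2 stays at the low end (-0.50 with TMM, 0.56 with melanoma markers).

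The same comparison within the T cell fraction sets the CD8-bead fraction of antigen-bearing tumors against that of B16-F10 tumors. In OVA T cells 5 of the 10 genes fell, 2 rose and 3 did not pass with TMM, while 7 fell and none rose with total-count scaling, where Mcm3 (adjusted p = 0.00411) and Mcm5 (adjusted p = 0.00279) passed. Scaled to T cell markers, 4 fell and 2 rose, where 54.6% of the 7596 calls over all genes were higher, and E2f1 did not pass (edgeR adjusted p = 0.0561). With TMM 46.1% of 16536 genes passed, 23.7% higher and 22.4% lower (edgeR, same threshold). Their median log2 fold change was -0.10, against -0.01 over all genes. Cdc6 fell most, by 0.45 on the log2 scale (SE 0.0694, adjusted p = 4.62e-06), then Mcm2 by 0.31 (SE 0.0369, adjusted p = 8.99e-08) and Tyms by 0.22 (SE 0.0476, adjusted p = 0.000468). E2f1 fell by 0.15 (adjusted p = 0.0346) and Mcm6 by 0.12 (adjusted p = 0.00122). Rrm2 rose by 0.12 (adjusted p = 0.0101) and Pcna by 0.06 (adjusted p = 0.0208) on the log2 scale, although their CPM overlapped between the groups, and neither passed with total-count scaling, under which 38.7% of the 7984 calls over all genes were higher, against 51.3% of 7623 with TMM. Mcm3 had a log2 fold change of -0.08 (95% interval -0.15 to -0.0014), Mcm5 -0.07 (95% interval -0.14 to 0.0001) and Ccne1 0.13 (95% interval -0.08 to 0.34). The smallest changes lay near the threshold. Over the fits that left out 1 library their log2 fold changes stayed at -0.18 to -0.12 for E2f1, 0.05 to 0.07 for Pcna and 0.10 to 0.16 for Rrm2, while the calls came and went. E2f1 did not pass without library 1 or 2 of either group (adjusted p = 0.088 to 0.151), Pcna not without OVA library 1 or B16-F10 library 2 or 3 (adjusted p = 0.0513 to 0.0876), and Rrm2 not without library 1 of either group (adjusted p = 0.0697 to 0.0768). These 3 also did not pass with DESeq2, nor did E2f1 with no filter (edgeR adjusted p = 0.0895). Mcm3 passed without OVA library 2 or B16-F10 library 1, and Mcm5 without OVA library 1. Melanoma markers summed to 109.6 CPM in OVA T cells against 246 CPM in B16-F10 T cells, neutrophil markers to 72.6 CPM against 42.2 CPM, and endothelial markers to 9120 CPM against 9995 CPM. The T cell marker sum was 889.7 CPM in OVA T cells against 934 CPM in B16-F10 T cells, but single markers went both ways, with Trbc2 at 190.1 ± 1.35 CPM in OVA T cells against 288 ± 2.57 CPM in B16-F10 T cells and Cd8b1 at 53.2 ± 1.66 CPM against 35.9 ± 1.32 CPM. The part of these moves in the result was not tested.

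The T cell fractions were below the tumor fractions in most of these genes. Among OVA libraries 9 of the 10 were lower in T cells and 1, Pcna, was higher (edgeR, 12 libraries in 1 model), where 77.5% of 18562 genes passed, 37.3% higher and 40.2% lower. Among B16-F10 libraries 9 were lower and Pcna did not pass, where 85.9% passed, 45.5% higher and 40.4% lower. The median log2 fold change of the 10 was -0.61 under the OVA label, against -0.03 over all genes, and -0.58 under the B16-F10 label, against 0.12 over all genes. Mcm2 was lower in T cells by log2 fold changes of -1.86 under the OVA label and -2.05 under the B16-F10 label, Ccne1 by -1.27 and -1.71, and Rrm2 by -1.16 and -1.70. Tyms, at -0.29 and -0.19, and E2f1, at -0.49 and -0.48, were lower by less. Cdc6 was lower by -0.58 under the OVA label and by -0.16 under the B16-F10 label (edgeR adjusted p = 0.0168). Under the B16-F10 label Cdc6 did not pass with DESeq2 (adjusted p = 0.264) or with median-ratio factors (edgeR adjusted p = 0.119). Nor did it pass in a fit of the 6 libraries compared (adjusted p = 0.09) or without library 2 of the B16-F10 tumor cells (adjusted p = 0.0512). Pcna was higher in T cells by 0.17 under the OVA label (adjusted p = 2.63e-09) and had a log2 fold change of -0.01 under the B16-F10 label (95% interval -0.05 to 0.02). Under that label it passed as higher with median-ratio factors (0.04, adjusted p = 0.0297) and as lower with no filter (adjusted p = 0.0385) or without library 1 of the B16-F10 T cells (adjusted p = 0.0264). With total-count scaling the median of all genes moved by -0.13 under the OVA label and by -0.24 under the B16-F10 label, and Pcna then was lower in B16-F10 T cells by -0.26 on the log2 scale. Endothelial and fibroblast markers were the main marker RNA of the T cell fractions, so the levels are those of a mixture, and the part of each cell type was not tested.

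**Figure D4:**
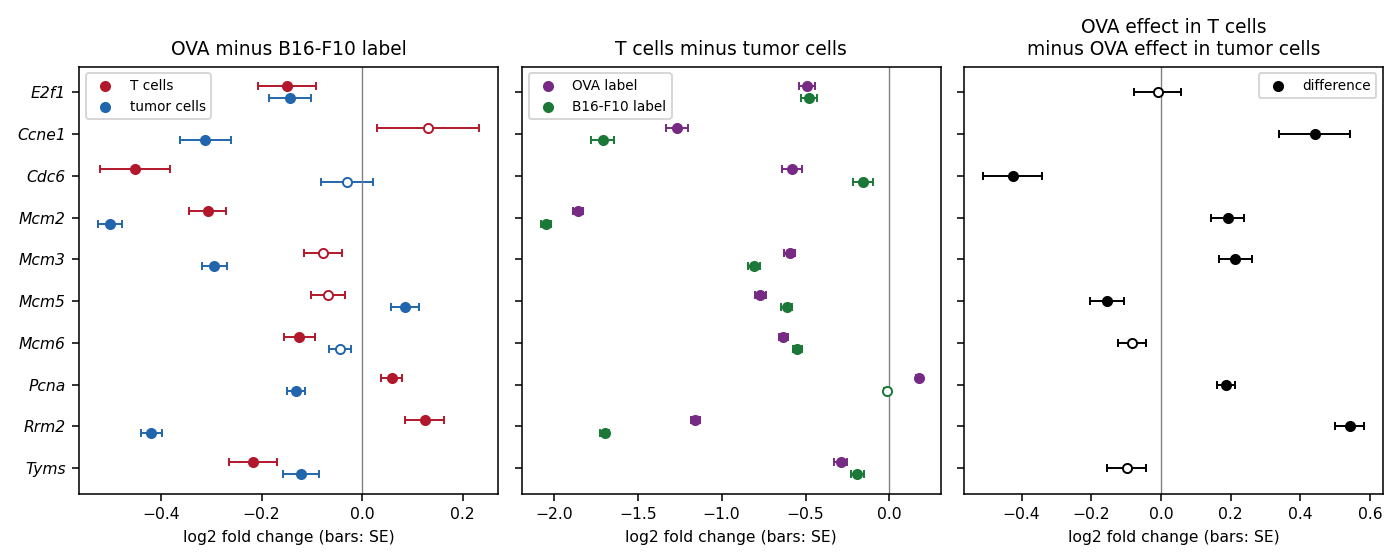
Log2 fold change (x axis, bars are SE) of the 10 genes (y axis) with TMM scaling, for OVA over B16-F10 in T cells and in tumor cells (left), T cells over tumor cells under each label (middle) and the OVA effect in T cells minus that in tumor cells (right). Filled points passed the test and open points did not. Rrm2 and Cdc6 are placed differently in the T cell and tumor cell comparisons of OVA with B16-F10, and Mcm2, Ccne1 and Rrm2 are lowest in T cells against tumor cells. The tumor comparison turns to higher for all 10 genes with melanoma-marker scaling.

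The difference between the OVA effects was tested directly, as the log2 fold change in T cells minus that in tumor cells (edgeR interaction term). Of the 10 genes 7 differed, 5 higher and 2 lower, where 69.0% of 18562 genes passed, 27.7% higher and 41.3% lower. Rrm2 differed by 0.54 (SE 0.0418, adjusted p = 1.09e-11), Ccne1 by 0.44 (SE 0.102, adjusted p = 0.000447), Mcm3 by 0.21, Mcm2 by 0.19 and Pcna by 0.19. For these 5 the log2 fold change was the lower one in tumor cells with TMM and with total-count scaling. With melanoma-marker scaling the tumor fold changes of all 10 genes, at 0.56 and above, lie over those in T cells, at 0.13 and below with TMM, so all 10 differences would then be negative. That difference was not tested. Cdc6 differed by -0.43 (SE 0.0848, adjusted p = 8.45e-05) and Mcm5 by -0.16 (adjusted p = 0.00567), and Mcm5 did not pass with total-count scaling (-0.04, adjusted p = 0.46), DESeq2 (adjusted p = 0.0927) or median-ratio factors (adjusted p = 0.0512), or without library 3 of the OVA T cells (adjusted p = 0.0543). Mcm6 (95% interval -0.17 to -0.0021), Tyms (-0.21 to 0.02) and E2f1 (-0.15 to 0.13) did not pass after adjustment, though Mcm6 did without library 1 of the OVA T cells or library 3 of the OVA tumor cells (adjusted p = 0.0137 and 0.0165).

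The other genes of the pathway were read from lists, first those that work with the MCM ring. Of 12 licensing partners 7 fell and 2 rose in OVA tumor cells with TMM, where 37.4% of all genes fell and 42.0% rose, and all 12 rose with melanoma-marker scaling. Under that scaling 96.1% of the calls over all genes were higher, which applies to each list below as well. Orc4 and Orc2, subunits of the origin recognition complex, fell by 0.86 and 0.68 and Mcm10, which helps to activate the helicase, by 0.64 on the log2 scale. Mcmbp, an MCM-binding protein, and Cdt1, the MCM loader, rose by 0.37 and 0.09 with TMM. With total counts or no filter 1 of the 12 rose, and Cdt1 had 68.8 ± 1.50 CPM in OVA tumor cells against 72.9 ± 2.24 CPM in B16-F10 tumor cells. In OVA T cells 2 of the 12 fell, Cdt1 by 0.14 and Orc1 by 0.23, and none rose, where 22.4% of all genes fell and 23.7% rose. The count was 5 with total counts and 0 with DESeq2, with no filter and with T cell marker scaling. Leaving out 1 library at a time gave 0 to 2 calls there, with 2 only without library 1 of the OVA T cells. T cells had 11 of the 12 lower than tumor cells under the OVA label (7 with DESeq2), with Cdt1 at -1.20 and Orc2 at -1.28, and 10 lower with 1 higher, Mcmbp at 0.21, under the B16-F10 label. Of all genes 40.2% were lower and 37.3% higher under the OVA label, and 40.4% lower and 45.5% higher under the B16-F10 label.

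Of 35 fork and polymerase genes, 15 fell and 10 rose in OVA tumor cells with TMM, a share called below the 79.4% of all genes, and all 35 rose with melanoma-marker scaling. Rpa1, which coats single-stranded DNA, fell by 0.66, and the clamp loader genes Rfc2 and Rfc1 by 0.44 and 0.36 on the log2 scale. Timeless, which protects forks, rose by 0.59 and Pold3, a polymerase delta subunit, by 0.49. In OVA T cells 12 fell and 1 rose, Pold3 by 0.15, where 46.1% of all genes passed. Rpa1 and Timeless each fell by 0.25 there, Dbf4, the activator of the kinase CDC7, by 0.30 and Gins2, part of the active helicase, by 0.36. T cells had 29 of the 35 lower and 4 higher than tumor cells under the OVA label, and 28 lower and 6 higher under the B16-F10 label, where Timeless was higher by 1.25 on the log2 scale. The shares of all genes that were lower were 40.2% under the OVA label and 40.4% under the B16-F10 label. The OVA effect on Timeless differed between T cells and tumor cells by -0.84 (adjusted p = 2.24e-13).

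Of 9 further genes of nucleotide supply, 3 rose and 4 fell in OVA tumor cells with TMM, while all 9 rose with melanoma-marker scaling. In OVA T cells 2 rose and 4 fell. Over all genes 79.4% passed in the tumor comparison and 46.1% in the T cell comparison. Samhd1, which breaks down deoxynucleotides, rose by 0.79 in OVA tumor cells and by 0.92 in OVA T cells on the log2 scale. Dtymk, thymidylate kinase, fell by 0.60 in OVA tumor cells and by 0.37 in OVA T cells. Rrm1, the partner of Rrm2 in ribonucleotide reductase, fell by 0.19 in OVA T cells. In tumor cells it rose by 0.04 with TMM but was lower in CPM, at 172 ± 1.47 CPM in OVA tumor cells against 188 ± 1.48 CPM in B16-F10 tumor cells. Samhd1 was higher in T cells than in tumor cells by 1.49 under the OVA label and by 1.37 under the B16-F10 label, while 7 of the 9 were lower under each. For all genes the lower share was 40.2% under the OVA label and 40.4% under the B16-F10 label.

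The 22 genes of G1/S control split in direction, with 8 rising and 9 falling in OVA tumor cells with TMM (21 rising and 1, Cdk2, falling with melanoma-marker scaling) and 2 rising and 9 falling in OVA T cells. All genes split too, with 42.0% rising and 37.4% falling in the tumor comparison and 23.7% and 22.4% in the T cell comparison. Ccnd1, cyclin D1, rose by 1.29 in OVA tumor cells and fell by 0.26 in OVA T cells on the log2 scale. Rb1, which restrains E2F, rose by 1.33 and the repressor E2f7 by 1.26 in OVA tumor cells, and they fell by 0.24 and 0.74 in OVA T cells. Ccnd2 and Cdk6, which drive cells through G1, rose by 0.80 and 0.73 in OVA T cells. Cdk2, the kinase of cyclin E, fell by 1.54 in OVA tumor cells, but it overlaps the melanoma marker Pmel in RefSeq and its counts are uncertain. Ccnd1, Rb1 and E2f7 were higher in T cells than in tumor cells under the B16-F10 label, by 1.64, 1.89 and 2.16 on the log2 scale. Under the OVA label the 2 fractions were closer. Ccnd1 had 182 ± 1.61 CPM in OVA T cells against 189 ± 1.79 CPM in OVA tumor cells, Rb1 58.6 ± 1.86 against 51.5 ± 0.561, and E2f7 34.3 ± 0.818 against 33.9 ± 1.56. The part of other cell types in these levels was not tested.

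The 7 CDK inhibitor genes, whose products hold cells in G1, all rose in OVA tumor cells, where 42.0% of all genes rose, and 6 of the 7 also with total-count scaling. Cdkn1a, which encodes p21, rose by 0.45 on the log2 scale, to 367 ± 4.81 CPM in OVA tumor cells against 302 ± 4.57 CPM in B16-F10 tumor cells. It rose by 0.58 in T cells, to 656 ± 14.3 CPM in OVA T cells against 457 ± 3.99 CPM in B16-F10 T cells. Cdkn2a had 46 counts and Cdkn2b 159 counts over the 3 OVA tumor libraries, and both had 0 counts in the B16-F10 tumor libraries. They were at least 12.65-fold and at least 43.7-fold higher in OVA tumor cells, taking 3 counts in all as the limit that 0 counts allow. Cdkn2a had 238 counts in OVA T cells and 179 in B16-F10 T cells. Cdkn1c had 147 counts in OVA tumor cells and 1 count in B16-F10 tumor cells, a ratio of 121 (95% counting interval 21.4 to 4823). These 3 genes were detected in the groups with high endothelial and fibroblast marker sums, and the part of those cells was not tested. In OVA T cells 2 of the 7 rose, Cdkn1a and Cdkn2b, and 3 fell, Cdkn1b by 0.37, Cdkn2c by 0.30 and Cdkn2d by 0.18. Over all genes 23.7% rose and 22.4% fell in that comparison.

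The 20 mitotic genes act after S phase or mark cycling cells. In OVA tumor cells 18 of the 20 fell and none rose, with a median log2 fold change of -0.38, against 37.4% of all genes that fell and a median of 0.04, though 18 rose and 2 fell with melanoma-marker scaling. In OVA T cells 15 fell and none rose, with a median of -0.26, against 22.4% of all genes that fell and a median of -0.01. Mki67, the common marker of cycling cells, fell by 0.66 in tumor cells, to 130.1 ± 1.04 CPM in OVA tumor cells against 231 ± 2.33 CPM in B16-F10 tumor cells. It fell by 0.62 in T cells, to 99.1 ± 3.63 CPM in OVA T cells against 159 ± 2.07 CPM in B16-F10 T cells. Cenpf and Cenpe, large kinetochore proteins, fell by 1.46 and 1.23 in OVA tumor cells and by 1.37 and 1.27 in OVA T cells. The difference between the OVA effects in T cells and tumor cells was higher for 8 of the 20, lower for 2 and not called for 10 with TMM. Over all genes 27.7% were higher and 41.3% lower. With total counts 11 of the 20 were higher and 2 lower. Among those not called were Mki67 (95% interval -0.03 to 0.10), Cenpf (-0.12 to 0.29) and Cenpe (-0.19 to 0.10). All 20 were lower in T cells than in tumor cells under the OVA label and 19 under the B16-F10 label. Over all genes 40.2% were lower under the OVA label and 40.4% under the B16-F10 label.

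Over the 12 libraries the profiles of the 10 genes were alike apart from Pcna. Pearson's r between log2(CPM + 1) values was 0.51 to 0.73 for the 9 pairs with Pcna and 0.82 to 1.00 for the other 36 pairs. These values describe 4 groups of 3 libraries rather than 12 independent samples, and the genes share the depth and cell mixture of each library. Of 10827 other named genes, those closest to the mean profile of the 10 were Tmpo (r = 0.9992), Wls (r = 0.999), Gyg1 (r = 0.9989), Gas2l3 (r = 0.9989) and Aldh2 (r = 0.9987). Tmpo, a protein of the nuclear lamina, had 122 ± 1.94 CPM in OVA T cells, 153 ± 0.806 CPM in B16-F10 T cells, 286 ± 4.08 CPM in OVA tumor cells and 439 ± 2.26 CPM in B16-F10 tumor cells.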

How the data were processed

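Polyadenylated RNA was sequenced in 12 libraries, 3 in each of 4 groups. The deposited values are raw read counts per gene. Per the submitters' processing notes, the authors used HISAT2 2.0.5, featureCounts 1.6.0 and the build GRCm39. The strand setting, the treatment of reads that match several genes and the annotation release are not given in the sources used here. Totals ran from 15494683 to 33263730 counts, and precision is that of counting plus the spread between 3 libraries.

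From the counts, CPM was computed on library totals. Folds and adjusted p-values came from edgeR 4.0.16 (limma 3.58.1, R 4.3.3) with filterByExpr, TMM and Benjamini-Hochberg adjustment over all genes tested. The comparisons of OVA with B16-F10 used the 6 libraries of a cell fraction, and the others all 12. The code was tested on simulated data. Alternatives were median-ratio factors, DESeq2 1.42.0, other filters, total-count and marker scalings, another choice of libraries, a replicate block and leaving out each library.

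The 10 genes and the pathway and marker lists (115 and 73 genes, all found) were chosen with earlier results of these data known. From each pathway list the text names at most the 4 genes with the smallest adjusted p in a comparison and genes called against the list's majority. Genes named a second time, for a contrast with another group, were chosen after their values were seen. Like-patterned genes had at least 5 CPM on average and the highest Pearson r over the 12 libraries. Whether libraries are separate mice is not stated, so p-values measure only the spread between libraries. The ovalbumin transgene was not analysed here. Promoters are from RefSeq (GRCm38.p6).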

Additional observations from a re-analysis of the deposited data

Results flagged for a closer look

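For 7 of the 10 genes the effect of the OVA label differed between T cells and tumor cells by the interaction test (edgeR, adjusted p under 0.05), which 69.0% of all genes tested also passed. The log2 fold change in T cells minus that in tumor cells was 0.54 for Rrm2, 0.44 for Ccne1, 0.21 for Mcm3, 0.19 for Mcm2 and 0.19 for Pcna. It was -0.43 for Cdc6 and -0.16 for Mcm5, and Mcm5 did not pass with DESeq2, median-ratio factors or total counts. These signs hold with TMM scaling, and melanoma-marker scaling raises the tumor fold changes of all genes by about 1.06, more than any positive difference here. Rrm2 and Pcna rose in OVA T cells and fell in OVA tumor cells with TMM scaling, while Cdc6 fell in OVA T cells and had a log2 fold change of -0.03 in OVA tumor cells. The rises of Rrm2 and Pcna in OVA T cells did not pass with DESeq2 (adjusted p = 0.0584 and 0.1). Nor did they pass with total counts (edgeR adjusted p = 0.16 and 0.94) or in some of the fits that left out 1 library.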

How the results depend on the processing

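In OVA tumor cells against B16-F10 tumor cells, melanoma-marker scaling turned the calls to 10 higher of the 10 genes, 12 higher licensing partners, 35 higher fork genes, and 18 higher of 20 mitotic genes called. Under this scaling 96.1% of the 16043 calls over all genes were higher. With it the median log2 fold change was 0.93 for the 10 genes, against 1.10 over all genes. The log2 fold changes under it were 0.56 for Mcm2, 0.77 for Mcm3, 1.02 for Mcm6, 0.93 for Pcna, 0.94 for Tyms, 0.64 for Rrm2, 1.03 for Cdc6, 0.75 for Ccne1 and 0.92 for E2f1. These follow a shift of the median of all genes by 1.06 with the scaling. The cause of the lower melanoma marker sum in OVA tumor cells was not tested. With total counts Mcm5 was at -0.083 there. Cdc6 was at 0.0045 with median-ratio factors and 0.0085 with DESeq2. In T cells DESeq2 called 4 of the 10 genes, all lower, against 7 with edgeR. For T cells against tumor cells under the B16-F10 label Pcna was at 0.044 with median-ratio factors, 0.0439 with DESeq2 and 0.025 in a fit of the 6 libraries compared, and passed as higher with the median-ratio factors only. For the difference between the OVA effects E2f1 was at 0.0406 with median-ratio factors, 0.0392 with DESeq2, 4e-04 with a filter of 1 CPM in 3 libraries and 0.11 with total counts, under which Mcm6 was at 0.0308 and Tyms at 0.0165. Leaving out 1 library at a time gave 8 to 9 of the 10 genes called in tumor cells, 5 to 7 in T cells, 10 to 10 and 8 to 10 for T cells against tumor cells under the OVA and the B16-F10 label, and 6 to 8 for the difference. Cdc6 in tumor cells ran from -0.0718 to 0.006 and the E2f1 difference from -0.0389 to 0.0406. The replicate block left the calls of the 10 genes at 8, 7, 10, 9 and 7, and called 13656 genes in tumor cells, 7576 in T cells, 14310 and 15905 for T cells against tumor cells, and 12723 for the difference. The numbers were not found to pair the libraries throughout. Same-numbered libraries correlated at -0.06 to 0.18, over 0.1 in 2 of 12 pairs, and in 0 of 4 pairs of groups did every library correlate best with its own number. Both values over 0.1 were between OVA T cells and OVA tumor cells, for library 1 (0.18) and library 3 (0.13). Whether those fractions came from the same tumors is not stated, and the check cannot settle it. Counting error limits Ccne1 most, the least abundant of the 10 in the T cells.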
